A study of Homo sapiens with 7 samples.

Results

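The 4 lists of chromatin regions bound during pancreatic differentiation were read at the genes GATA4 and GATA6. A region counted as a member when its midpoint lay within 200 kb of the gene span on hg19, which was chr8:11561717-11617509 for GATA4 and chr18:19749416-19782227 for GATA6. Of 86081 regions in the 4 lists together, 73 were members, with 34 at GATA4 and 39 at GATA6. The lists came from chromatin immunoprecipitation and sequencing (ChIP-seq) of CyT49, an established human embryonic stem cell line that was driven toward pancreas in culture. HNF6, also called ONECUT1, was profiled in pancreatic progenitors on day 10 and in gut tube endoderm on day 5. The other lists are those of GATA6 from day 10 and of NKX6.1 from day 13. The characteristics name the pancreatic stage of day 10 as PE and that of day 13 as PP, and that of day 5 as GTE. Each list was made from 1 library of 1 cell line, so the values cannot be checked against replicates and carry no p-value. The titles of the listed libraries name the factor that their antibody characteristic gives, except that the day 5 title has HNF and its characteristic HNF6, while the extraction text of all samples names an antibody against NKX6.1 only.

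GATA4 and GATA6 are closely related zinc finger transcription factors of endoderm and heart that bind DNA at GATA sequences. In humans, loss of 1 copy of GATA6 is a known cause of failed pancreas formation, and variants of GATA4 are known from congenital heart defects and neonatal diabetes. In mice, the pancreas fails when both genes are removed from its progenitors, so each can stand in for the other there. HNF6 is a cut homeodomain factor of early liver and pancreas, and NKX6.1, another homeodomain factor, marks pancreatic progenitors before it becomes restricted to beta cells. Transcription factors often bind near genes of other factors of the same programme, and their own genes, at promoters and at distant enhancers.

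Both genes run in the direction of rising coordinates, so "upstream" here means below the lower coordinate of the span. The bases just before the GATA6 start are printed because all distances at that gene are counted from its start, and because HNF6 regions lie on both sides of it. The RefSeq promoter table gives them on GRCh38.p14, at chr18:22169339-22169588 on the plus strand. RefSeq may place the start at another base than the hg19 span does, so the stretch was not set against the hg19 regions by position.
GATA6 upstream 250 bases: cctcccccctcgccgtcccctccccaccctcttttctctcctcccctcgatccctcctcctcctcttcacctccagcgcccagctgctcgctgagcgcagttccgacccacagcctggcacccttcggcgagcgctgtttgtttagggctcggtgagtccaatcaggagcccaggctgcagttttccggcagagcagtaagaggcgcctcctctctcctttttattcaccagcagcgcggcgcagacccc
The letters are all in lower case because none of the 4 sequences searched for occurred on either strand. These were AGATAA and TGATAA, which GATA factors bind, ATTGAT, the core of HNF6 sites, and TTAATTA, which NKX6 factors bind. They occurred in 9.17%, 6.66%, 5.58% and 2.44% of the 35116 RefSeq promoters searched over the same length. An absence says only that these letters are not in this stretch.

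Both loci held many regions bound in progenitors and none bound by HNF6 in gut tube endoderm. HNF6 on day 10 had 22 regions at GATA4 and 28 at GATA6. The listed GATA6 regions numbered 6 at GATA4 and 8 at GATA6. Of these, 2 lay in the GATA4 span and 1 in the GATA6 span, and the others lay outside but within 200 kb. NKX6.1 had 6 regions at GATA4 and 3 at GATA6. HNF6 on day 5 had 0 regions at either gene. Its list held only 250 regions over the whole genome, and 96.6% of windows of the GATA4 length and 96.7% of those of the GATA6 length held none of them. The nearest day 5 regions lay 22.8 Mb beyond the end of GATA4, where 10 were listed on chromosome 8, and 3.89 Mb beyond the end of GATA6, where 3 were listed on chromosome 18.

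These counts were set beside adjacent windows of the same length laid over all chromosomes, 6682 windows for the GATA4 length of 455.8 kb and 7038 for the GATA6 length of 432.8 kb. For HNF6 on day 10, 5.04% of windows held at least the 22 regions of the GATA4 locus, and 1.04% held at least the 28 of the GATA6 locus. For listed GATA6, 0.539% of windows held at least the 6 regions of the GATA4 locus, and 0.0853%, or 6 windows, held at least the 8 of the GATA6 locus. For NKX6.1, 6.26% of windows held at least the 6 regions of the GATA4 locus and 35.1% held at least the 3 of the GATA6 locus. The NKX6.1 count at GATA6 was thus near what many windows hold. The windows cover whole chromosomes, including stretches without listed regions. No HNF6 region of day 10 lay in 565 windows of the GATA4 length and 598 of the GATA6 length. Counting such empty windows makes the shares above smaller.

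Expressed as regions per Mb, HNF6 on day 10 had 48.3 at GATA4 and 64.7 at GATA6, against 21.3 over its whole list. The ratios to the whole list were 2.27 (exact Poisson 95% interval 1.42 to 3.44) at GATA4 and 3.04 (2.02 to 4.40) at GATA6. Every listed GATA6 region overlaps an HNF6 region of day 10, so the counts and densities of listed GATA6 are not independent of those of HNF6. For listed GATA6 the ratios were 6.39 (2.35 to 13.9) at GATA4 and 8.98 (3.88 to 17.7) at GATA6. For NKX6.1 they were 2.75 (1.01 to 5.98) at GATA4 and 1.45 (0.299 to 4.23) at GATA6, and the second interval includes 1. Against the density of the gene's own chromosome, the HNF6 ratios were 2.17 at GATA4 and 2.31 at GATA6. Those of listed GATA6 were then 5.94 and 7.23, and those of NKX6.1 2.5 and 1.24. The intervals cover counting error only, since neighbouring regions are not independent. With a wider window of 500 kb on each side, the ratios at GATA4 were 1.25 (0.829 to 1.80) for HNF6, 3.22 (1.29 to 6.63) for listed GATA6 and 1.39 (0.557 to 2.85) for NKX6.1, so the intervals of HNF6 and NKX6.1 then include 1. At GATA6 the ratios in the wider window were 2.32 (1.73 to 3.05) for HNF6, 5.17 (2.58 to 9.25) for listed GATA6 and 1.415 (0.569 to 2.92) for NKX6.1. Of these, only the interval of NKX6.1 includes 1.

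**Figure D1:**
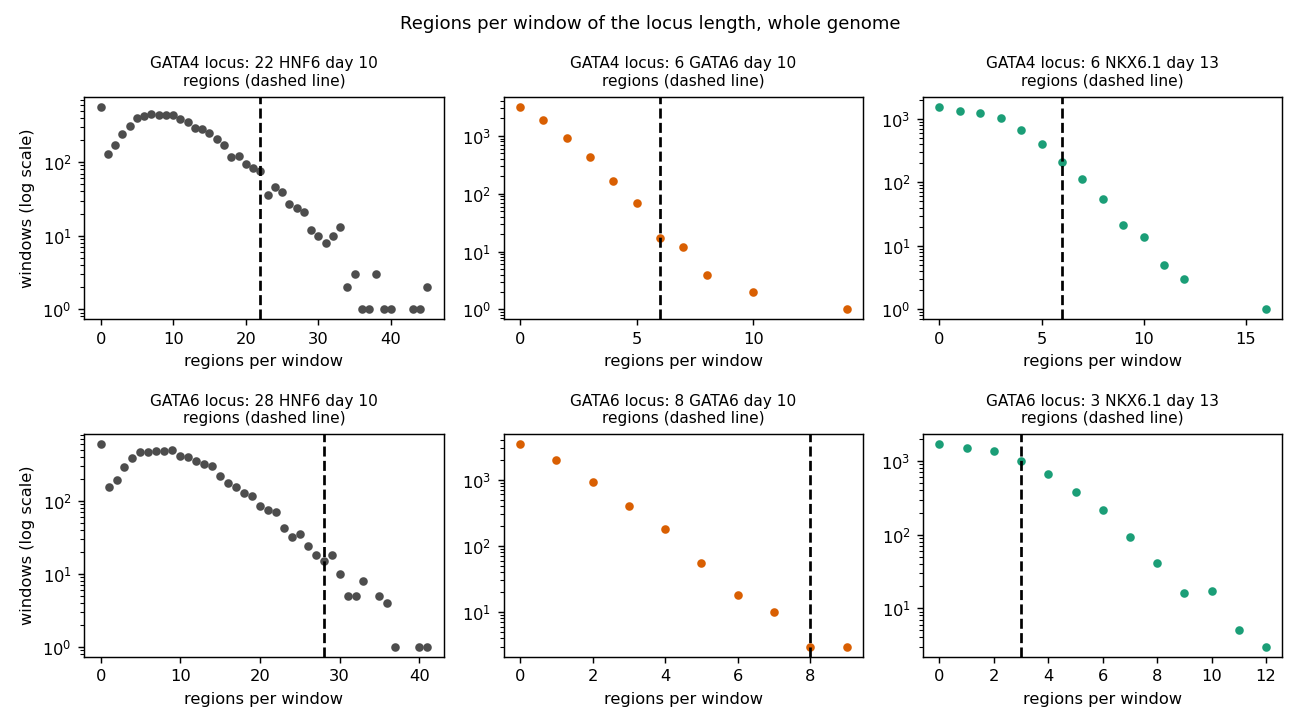
Each point gives how many windows (vertical axis, log scale) held a given number of regions (horizontal axis), for windows as long as the GATA4 locus (top) and the GATA6 locus (bottom), in the HNF6 day 10, GATA6 day 10 and NKX6.1 day 13 lists; windows lie end to end over all chromosomes. The dashed line marks the locus itself: 8 listed GATA6 regions at GATA6 stand at the far end of the distribution, whereas 3 NKX6.1 regions stand within its bulk.

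Peak scores have no stated unit and were compared only within a list, mostly as a percentile, where 100 is the strongest. At GATA4, HNF6 regions spanned nearly the whole range of strength. Their median percentile was 37.1 (95% interval of the median 22.6 to 71.3), from 2.93 to 99.6. Of the 22 regions 3 were in the highest score decile, which holds 10.0% of the list, and 13 were below the list's median. At GATA6 the HNF6 median was 55.0 (32.0 to 87.2), from 2.93 to 98.4, and 7 of 28 regions were in the highest decile. The GATA6 list holds 6285 regions, or 32.4% of its peak numbers, all at HNF6 regions of day 10. A GATA6 percentile, and a strongest or weakest GATA6 region, refers to these listed regions only. The listed GATA6 regions had a median percentile of 84.7 at GATA4, from 21.7 to 98.3, with 3 of 6 in the highest decile of their list (9.99%). At the GATA6 gene the same factor's regions were of middle strength among those listed. Their median was 55.1, from 4.54 to 89.8, and 0 of 8 were in the highest decile. NKX6.1 had a median of 95.5 at GATA4, from 65.7 to 97.5, with 5 of 6 regions in its highest decile (10.0%). At GATA6 its 3 regions stood at 65.7, 86.5 and 90.0, of which the highest lay just under the decile limit.

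**Figure D2:**
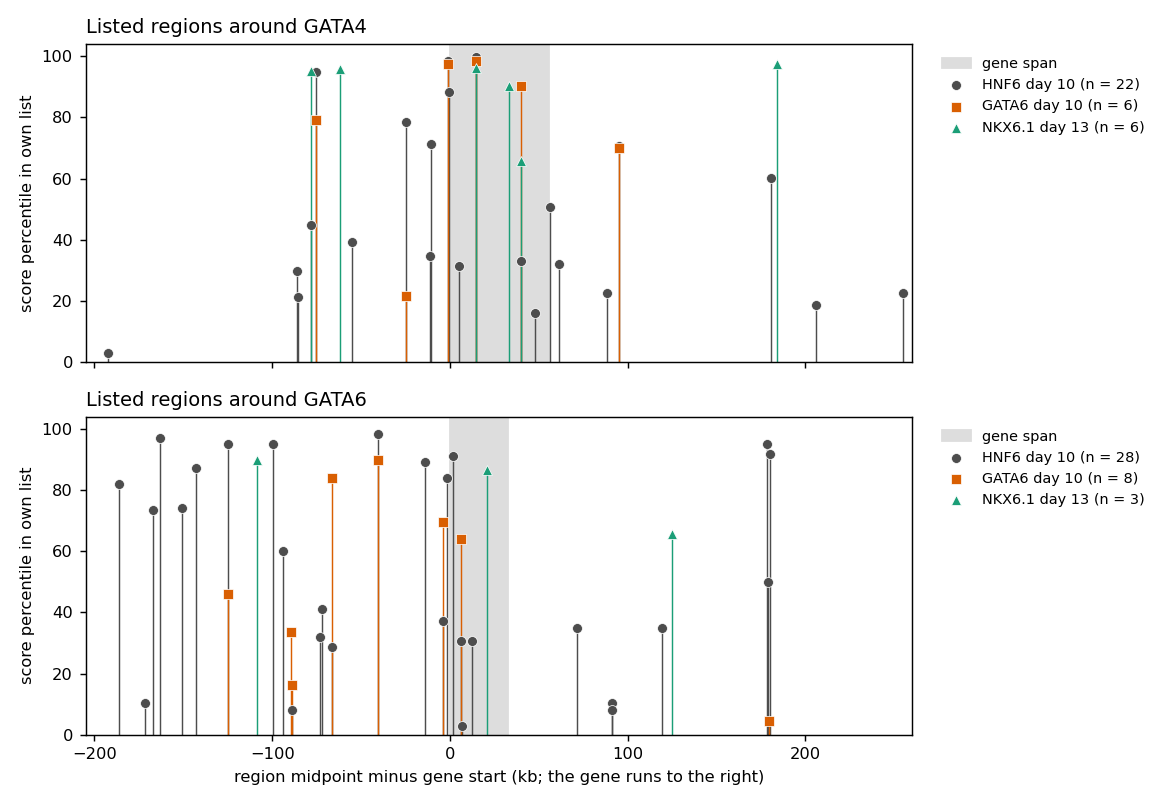
Each stem is a listed region, placed by its midpoint minus the gene start in kb (horizontal axis) and by its score percentile within its own list (vertical axis), at GATA4 (top) and GATA6 (bottom), with the gene span in grey; HNF6 on day 5 had no region to plot. At GATA4 the strongest HNF6 and GATA6 regions stand just before the start and in the gene, at 1.08 kb upstream and 14.7 kb downstream of the start, whereas at GATA6 the strongest HNF6 regions are spread over 163 kb upstream and a cluster 180 kb downstream.

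At GATA4 the strongest HNF6 and GATA6 regions lay inside the gene. There, 14.7 kb after the start, an HNF6 region at chr8:11576052-11576791 had a score of 2060 and ranked 255 of 64919 in its list (percentile 99.6). It overlapped the strongest GATA6 region of the locus, at chr8:11576155-11576858, with a score of 1301 and rank 108 of 6285 (percentile 98.3). An NKX6.1 region at chr8:11576241-11576440, with a score of 273 and percentile 96.0, lay within both. All 3 factors were thus high in their own lists at a single place in GATA4. A further place with all 3 lay 40.1 kb after the start, where the order of percentiles differed. The GATA6 region at chr8:11601622-11602018 had a score of 520 (percentile 90.3), the NKX6.1 region at chr8:11601755-11601850 a score of 72 (percentile 65.7) and the HNF6 region at chr8:11601668-11601852 a score of 57 (percentile 33.2).

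Strong HNF6 regions lay just upstream of the GATA4 start. An HNF6 region at chr8:11561230-11561679 ended 38 bp before the start, with a score of 348 (percentile 88.5) and no listed partner. Next to it, 1.08 kb upstream, an HNF6 region at chr8:11560229-11561036 had a score of 1216 and rank 1109 (percentile 98.3). It held a GATA6 region at chr8:11560360-11560923 with a score of 1129 and rank 152 (percentile 97.6), whose midpoint lay 9 bp from that of HNF6. No listed region covered the start itself. The first HNF6 region after it lay 5.01 kb downstream, with a score of 54 (percentile 31.3), and the nearest NKX6.1 region lay 14.5 kb away.

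Farther from GATA4, 3 more places carried HNF6 with GATA6 and 1 carried HNF6 with NKX6.1. Upstream by 75.4 kb, HNF6 at chr8:11486103-11486459 (score 644, percentile 94.8) overlapped GATA6 at chr8:11486145-11486668 (score 271, percentile 79.2). Upstream by 24.8 kb, HNF6 at chr8:11536782-11537133 (score 193, percentile 78.4) overlapped a weak GATA6 region at chr8:11536754-11536982 (score 51, percentile 21.7). Beyond the gene end by 39.3 kb, HNF6 at chr8:11656615-11656905 (score 142, percentile 70.7) overlapped GATA6 at chr8:11656610-11656999 (score 188, percentile 70.1). The pair of HNF6 and NKX6.1 lay 78.0 kb upstream, where NKX6.1 at chr8:11483623-11483799 scored 245 (percentile 95.1) and HNF6 at chr8:11483605-11483785 scored 71 (percentile 44.9). The remaining 3 NKX6.1 regions touched no other listed region. They lay 61.6 kb upstream at chr8:11500083-11500202 (score 271, percentile 95.9), in the gene at chr8:11594703-11594856 (score 166, percentile 90.3) and beyond its end by 128 kb at chr8:11745623-11745761 (score 340, percentile 97.5). The last of these was the strongest NKX6.1 region at either gene.

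At GATA6, HNF6 regions lay on both sides of the start and none reached it. The nearest, at chr18:19750720-19751173, began 1304 bp after the start, inside the gene, with a score of 429 (percentile 91.1) and no listed partner. On the other side, an HNF6 region at chr18:19747461-19747825 had a score of 257 (percentile 83.95) and lay 1.77 kb upstream. The listed GATA6 regions nearest to the start of their own gene lay 3.99 kb upstream and 6.04 kb downstream. The upstream one, at chr18:19745125-19745736, had a score of 187 (percentile 69.7) and covered an HNF6 region of score 60 (percentile 37.3). The downstream one, at chr18:19755250-19755657, had a score of 155 (percentile 64.0) and covered an HNF6 region of score 53 (percentile 30.5). At these places GATA6 stood higher in its list than HNF6 did in its own, which is an order of percentiles and not of binding strength.

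The strongest HNF6 region of the GATA6 locus lay 40.3 kb upstream, at chr18:19708919-19709388, with a score of 1257 and rank 1028 (percentile 98.4). It held the strongest GATA6 region of the locus, at chr18:19708986-19709317, with a score of 502 and rank 638 (percentile 89.8), and the midpoints lay 2 bp apart. Upstream by 66.3 kb, GATA6 at chr18:19682898-19683259 (score 339, percentile 83.9) overlapped a weak HNF6 region (score 50, percentile 28.7). Upstream by 125 kb the order of percentiles was the opposite. There HNF6 at chr18:19624237-19624605 (score 676, percentile 95.2) overlapped GATA6 at chr18:19624384-19624580 (score 94, percentile 46.1). Near 89 kb upstream, 1 weak HNF6 region (score 30, percentile 8.12) bridged GATA6 regions at chr18:19659813-19660316 (score 68, percentile 33.5) and chr18:19660433-19660656 (score 45, percentile 16.3).

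A compact cluster lay 180 kb after the GATA6 start. It held 3 HNF6 regions between chr18:19927694 and 19929463, with scores of 678 (percentile 95.2), 79 (percentile 49.9) and 461 (percentile 91.8) in order of position. The last 2 were joined by a GATA6 region at chr18:19928730-19929181 with a score of 26 (percentile 4.54), the weakest GATA6 region at either gene. Strong HNF6 regions without a listed partner also occurred upstream, at chr18:19586299-19586733 (score 936, percentile 97.2) and chr18:19649933-19650340 (score 667, percentile 95.1). The NKX6.1 regions lay 108 kb upstream at chr18:19640883-19641001 (score 163), 21.1 kb into the gene at chr18:19770460-19770612 (score 134) and 92.3 kb beyond its end at chr18:19874509-19874593 (score 72). None of them touched an HNF6 or a listed GATA6 region.

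When overlapping regions of the 3 later lists were merged, GATA4 had 25 separate places and GATA6 had 30. At GATA4, 15 held HNF6 alone, 3 NKX6.1 alone, 4 HNF6 with GATA6, 1 HNF6 with NKX6.1 and 2 all of them. At GATA6, 20 held HNF6 alone, 3 NKX6.1 alone and 7 HNF6 with GATA6, and 0 held NKX6.1 with another factor. Counted as HNF6 regions, 14 of 50 at both genes together overlapped a listed GATA6 region, or 28.0% (exact binomial 95% interval 16.2 to 42.5). The share was 9.64% (9.42 to 9.87) over the rest of the HNF6 list and 9.66% over all of it. It was 6 of 22 at GATA4 and 8 of 28 at GATA6. Among regions at or above the median score of each list it was 4 of 9 at GATA4, or 44.4% (13.7 to 78.8), and 1 of 15 at GATA6, or 6.67% (0.169 to 31.95). Over the whole HNF6 list the share at the same limits was 7.78%, which lies outside the interval at GATA4 and inside that at GATA6. The listed GATA6 regions all overlap HNF6 over the whole list (100%), so that direction was not read.

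NKX6.1 overlapped 3 of 22 HNF6 regions at GATA4, or 13.6% (2.91 to 34.9), and 0 of 28 at GATA6 (0 to 12.3), against 3.20% over the whole HNF6 list. Both intervals include the share of the whole list, and the difference between the genes was not tested. HNF6 regions with both partners numbered 2 of 22 at GATA4 (1.12% to 29.2%) and 0 of 28 at GATA6, against 1.15% of the list. From the NKX6.1 side, 3 of 6 regions at GATA4 (11.8% to 88.2%) and 0 of 3 at GATA6 overlapped HNF6, against 14.3% of the NKX6.1 list. Listed GATA6 was overlapped by 2 of 6 NKX6.1 regions at GATA4 (4.33% to 77.7%) and 0 of 3 at GATA6, against 5.18% of that list. From the GATA6 side, 2 of 6 regions at GATA4 (4.33% to 77.7%) and 0 of 8 at GATA6 overlapped NKX6.1, against 11.8% of the listed GATA6 regions. All of these intervals include the share of the whole list. The NKX6.1 list differs from the others in factor, day and library at the same time, and these cannot be told apart. Of the 50 HNF6 regions of day 10, 0 had a partner in the day 5 list, against 0.347% of the whole list, too rare to be read from 50 regions.

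With any overlap counted, the order of HNF6 median scores by overlap with GATA6 was opposite at the 2 genes. At GATA4, the 6 HNF6 regions with GATA6 had a median score of 418.5, from 57 to 2060, and the 16 without it a median of 54.5, from 22 to 348. At GATA6, the 8 HNF6 regions with GATA6 had a median of 69.5, from 30 to 1257, and the 20 without it a median of 131, from 22 to 936. This order at GATA6 rests on the limit of 1 bp. The HNF6 regions of scores 30, 50, 79 and 461 shared only 44 to 89 bp with GATA6, less than 50% of the shorter region. Those that met a limit of 50% scored 53, 60, 676 and 1257, and medians under that limit were not measured. Over the whole list the medians were 235 with GATA6 and 77 without, the order seen at GATA4. The scores of the classes overlapped at both genes, and the difference between the genes was not tested.

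**Figure D3:**
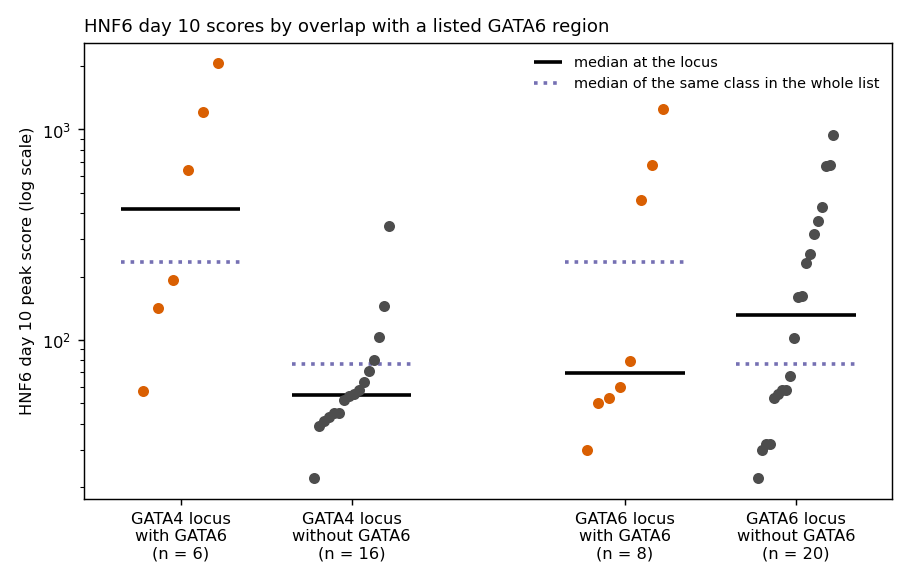
Points are the HNF6 day 10 regions at each gene by their peak score (vertical axis, log scale), split by overlap with a listed GATA6 region; black lines are medians at the locus and dotted lines the median of the same class in the whole HNF6 list. At GATA4 the regions with GATA6 have the higher median (418.5 against 54.5), and at GATA6 the lower one (69.5 against 131). Any overlap of at least 1 bp counts here, and at GATA6 the classes change under a stricter limit.

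The midpoints of overlapping pairs lay closer together at GATA4, a difference that was not tested. The 6 pairs of HNF6 and GATA6 there had midpoints 9 to 125.5 bp apart, with a median of 72.5 bp. The 9 pairs at GATA6 had midpoints 2 to 417 bp apart, with a median of 159 bp. Several of them touched only at their edges, by 44 to 89 bp. With an overlap of at least 50% of the shorter region, the share of HNF6 regions with GATA6 was unchanged at GATA4. At the GATA6 gene it was then 14.3% (4.03 to 32.7). With midpoints within 200 bp it was 17.9% (6.06 to 36.9) at the GATA6 gene and again unchanged at GATA4. Both intervals at the GATA6 gene include the 9.66% of the whole HNF6 list, which was counted at any overlap. The share of the whole list under the stricter limits was not measured. The share at the GATA6 gene was thus lower under both limits, which leave out pairs that touch at their edges. Whether it then still exceeds that of the whole list is not known.

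The GATA6 list holds only part of the peaks that its numbering implies: 6285 of 19404 numbers, or 32.4%. Its numbers rise with position along each chromosome, so they show how many peaks not analysed here fell between listed neighbours. From the first to the last listed region, 6 of 10 numbers were listed at GATA4 and 8 of 16 at GATA6. At GATA6, 3 unlisted numbers fell in the 9.51 kb that holds the start of the gene, between 3.68 kb upstream and 5.83 kb downstream. At GATA4, 1 fell in the 15.2 kb that holds its start. Their exact places are not shown by the numbers, so whether GATA6 had a peak at the start of its own gene was not measured here. The counts of GATA6 regions above are likewise minimum counts for that library.

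Along the chromosome, HNF6 regions were denser before and within the genes than after them, although the intervals overlap. At GATA4, 11 lay upstream, 4 in the gene and 7 downstream, or 55.0 (27.5 to 98.4), 71.7 (19.5 to 184) and 35.0 (14.1 to 72.1) per Mb. At GATA6 there were 17 upstream, 4 in the gene and 7 downstream, or 85.0 (49.5 to 136), 122 (33.2 to 312) and 35.0 (14.1 to 72.1) per Mb. Listed GATA6 regions were placed 3, 2 and 1 at GATA4 and 6, 1 and 1 at GATA6. The upstream HNF6 regions of GATA6 were also the stronger, with a median percentile of 74.0, against 30.5 in the gene and 34.9 downstream. At GATA4 the medians were 44.9, 32.2 and 32.0. Neighbouring HNF6 midpoints lay a median of 9.46 kb apart at GATA4 and 5.83 kb at GATA6. The longest stretches without an HNF6 midpoint were 106 kb in the upstream part of the GATA4 window and 59.1 kb between the cluster beyond GATA6 and the region before it.

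Other genes lie next to both. By gene order in RefSeq (GRCh38.p14), the nearest protein-coding genes are BLK, a tyrosine kinase of B cells, before GATA4 and NEIL2, a DNA repair glycosylase, after it. For GATA6 they are MIB1, a ubiquitin ligase of Notch ligands, and CTAGE1, and the non-coding GATA6-AS1 lies next to the start of GATA6. No hg19 gene annotation was used here, so regions outside the spans were assigned to neither GATA4 nor GATA6 nor a neighbour, and exons and introns were not distinguished. The region lists carry no expression values, so which gene a region acts on was not measured.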

How the data were processed

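ChIP-seq was made from 7 samples, of which 4 had a region list and 3 were inputs, which were not analysed here. Bowtie2 2.3.4.1, MACS2 2.1.1.20160309 and hg19 are named, without roles or settings, per the submitters' processing notes. Each library's list, as deposited, has positions and a whole-number score per peak. No source used here states the unit of the score. The score was compared only within a list. Scores start at 13 (22 in the day 5 list), so weak regions are cut off, and read depth is unknown. Rows with equal coordinates were merged, with the highest score kept, into 64919 (HNF6 day 10), 6285 (GATA6), 14627 (NKX6.1) and 250 (HNF6 day 5) regions.

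Groups were taken from titles. Regions that shared at least 1 bp were called overlapping (Python 3.11.15, pandas 2.3.3, numpy 2.4.6), and bedtools 2.31.1 gave the same numbers in all 12 ordered pairs of lists. Exact intervals came from scipy 1.17.1. Windows lay end to end on 24 chromosomes, whose lengths were taken as the farthest listed position. Coordinates are 1-based. The code was tested on simulated data. Alternatives were rows not merged, membership by overlap, windows of 100 and 500 kb, stricter overlap and scores at or above each list's median. The text names every GATA6, NKX6.1 and day 5 region at the genes, the HNF6 regions that overlap them, the 5 strongest HNF6 regions per gene and the one nearest to each start. The members, lists and measures were chosen with earlier results of these data known.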

Additional observations from a re-analysis of the deposited data

How the results depend on the processing

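Of 94 alternative values for 28 results, 89 stayed within the interval of the value reported, or within 1.5 times for counts. The other 5 were as follows. At or above the median score of each list, the HNF6 day 10 regions numbered 9 at GATA4 and 15 at GATA6, and the listed GATA6 regions at GATA6 numbered 4, which the removal of the weaker part of each list brings about. Under the same limit the share of HNF6 regions with GATA6 at the GATA6 gene was 6.67%. With 500 kb on each side, the HNF6 density at GATA4 was 1.25 times that of the whole list, and the cause was not tested. With 6 listed GATA6 regions at GATA4 and 3 NKX6.1 regions at GATA6, the intervals are wide enough that staying within them says little. The 89 also include values that were 0 under every setting. These were the HNF6 day 5 counts and shares, which could not move because no day 5 region was near, and the NKX6.1 share at GATA6. With 50% overlap the share of HNF6 regions with GATA6 at the GATA6 gene went from 28.6% to 14.3% and still counted as within. The interval of the lower value, 4.03 to 32.7, includes the 9.66% of the whole HNF6 list, which was counted at any overlap. No paired analysis was possible because each group has 1 library and no replicate numbers, and no replicate could be left out.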
